A study of Canis lupus familiaris with 27 samples.

Results

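Among the 27 canine simple mammary carcinomas of the series, 11 came from dogs whose lymph nodes held metastases and whose survival after surgery was given in months. They were divided by survival into 5 tumors from dogs that lived 3 months or less (short survival) and 6 tumors from dogs that lived 5 months or more (longer survival). The 2 other metastatic tumors had no stated survival, and the 14 non-metastatic tumors are used here for the level of a gene, for a comparison of grades and in 1 fit that shares a spread over all 27. All 11 were primary tumors scored negative for estrogen receptor alpha. The short-survival group held survival times of 1, 2, 2, 3 and 3 months in dogs aged 11 to 16 years, and the longer-survival group held 5, 6, 6, 8, 8 and 9 months in dogs aged 9 to 16 years. ERBB2 staining was negative in 1 short-survival tumor and in 1 longer-survival tumor. Each tumor was 1 dog, macrodissected for carcinoma cells and hybridized once to an Affymetrix array, so that p-values measure the spread between dogs.

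Survival with nodal metastases varies among dogs, and the comparison asks whether the RNA of the primary tumor already differs between dogs that died within 3 months and dogs that lived longer. Mammary carcinoma spreads when epithelial cells leave the duct wall, cross the basement membrane and reach the draining lymph node. Genes of proliferation, cell adhesion, stroma and immune cells are the ones most often related to outcome in breast cancer. In bulk tissue, fewer cells of a type and less RNA per cell cannot be told apart.

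Histologic grade nearly coincided with survival. All 5 short-survival tumors were grade II, against 1 of 6 longer-survival tumors, the other 5 of which were grade III, so that grade and survival cannot be told apart in these dogs. Mean age was 13.6 ± 2.3 years in short survival and 11.5 ± 2.59 years in longer survival (SD, exact permutation p = 0.208, two-sided, n = 5 and 6). Tumor size averaged 2.1 ± 1.43 cm in short survival and 3 ± 1.26 cm in longer survival (SD, exact permutation p = 0.34, n = 5 and 6). Array quality was close between the groups, with a 3′ to 5′ difference of GAPDH of 1.8 ± 0.382 log2 in short survival and 1.8 ± 0.299 log2 in longer survival (SD, exact permutation p = 0.991, n = 5 and 6). Their upper quartile was 7.91 ± 0.0442 log2 in short survival and 7.93 ± 0.0308 log2 in longer survival (SD, exact permutation p = 0.452, n = 5 and 6).

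The tissue carried its label. The epithelial markers EPCAM and KRT8 lay between 12.60 and 14.30 and between 11.44 and 13.98 log2 in short survival, and between 12.48 and 14.29 and between 10.20 and 14.49 log2 in longer survival, well above background, which is about 2 log2 here. KRT18 lay between 11.74 and 13.58 log2 in short survival and between 6.50 and 14.31 log2 in longer survival. Markers of other cells were also present, among them COL1A1 of fibroblasts, with a median of 15.21 log2 in short survival and 14.54 log2 in longer survival, and CD163 of macrophages, with a median of 10.52 log2 in short survival and 10.18 log2 in longer survival. ADIPOQ of adipocytes had a median of 7.37 log2 in short survival and 7.08 log2 in longer survival. FABP4, also of adipocytes, had 8.96 and 9.38 log2, whereas LEP and PLIN1 were near background in the median of both groups. ESR1, the estrogen receptor gene, was 2.24, 2.23, 2.19, 3.40 and 2.29 log2 in short-survival tumors 1 to 5, against a lowest, median and highest of 2.17, 2.25 and 2.36 log2 in longer survival. ESR1 was thus at background in every tumor but short-survival tumor 4. The ERBB2 level was 4.51 log2 in the short-survival tumor with negative staining and 4.60 log2 in the longer-survival tumor with negative staining, the lowest levels of the 11.

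The tumors did not group by survival. Over 15115 genes, the median correlation was 0.944 among the 10 pairs within short survival, 0.953 among the 15 pairs within longer survival and 0.949 among the 30 pairs between the groups. When each gene was centred and the 1000 most variable genes were used, 8 of 11 tumors had their nearest tumor in the other survival group (the closest was r = 0.634, between short-survival tumor 3 and longer-survival tumor 1). The same pair had the highest correlation of all 55 pairs, 0.984, with 79 genes more than 3 log2 units apart, against 156 to 691 in the other pairs. Longer-survival tumor 1 correlated still more with a non-metastatic tumor, at 0.991. Whether tissue or RNA was shared was not tested, and the counts below are also given without the pair.

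**Figure D1:**
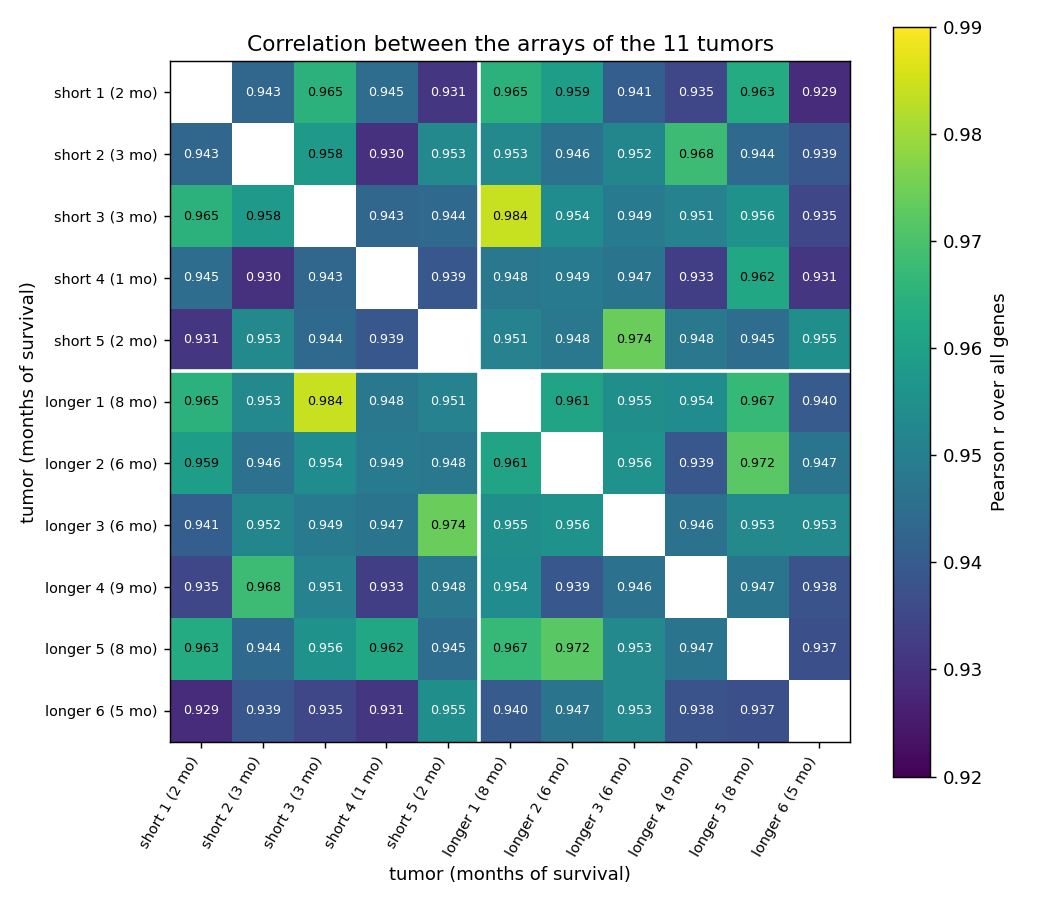
Pearson correlation over 15115 genes between the arrays of the 11 tumors, with short-survival tumors in the upper and left rows and columns and the survival in months in brackets. The most alike pair, short 3 and longer 1 at 0.984, lies across the 2 groups, and no block of high values marks either group.

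No gene passed the test. With limma and an adjusted p below 0.05, 0 of 15115 genes were higher in short survival (0%) and 0 were lower (0%), and every gene had an adjusted p of 1.00. None of the 42860 probe sets passed this threshold (0% in each direction) or the thresholds of the study. At an unadjusted p below 0.05, 134 genes were higher in short survival (0.887%) and 152 were lower (1.01%), 286 in all (1.89%). That is less than the share of 0.05 that such a threshold passes without any difference, so the count shows no excess. Without short-survival tumor 3 and longer-survival tumor 1, 0 genes passed the adjusted threshold, and 128 higher and 137 lower genes had an unadjusted p below 0.05. Without short-survival tumor 5 alone, 262 genes were higher at an unadjusted p below 0.05.

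The fits bound the sizes that could be missed in genes above background. The median half-width of the 95% interval of a log2 difference was 0.590, and 9331 of 15115 genes had an interval that lay within 1 log2 unit of no difference on both sides. For the remaining genes the interval reached beyond 1 log2 unit in at least 1 direction. The 9331 include genes near background, such as ESR1 (95% interval -0.24 to 0.68). The median level of all probe sets tested was 3.63 log2 in both groups. Near background, an interval can be narrow for lack of signal and then does not bound a difference. A total of 535 genes had a difference of 1 log2 unit or more, none of which passed the test.

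**Figure D2:**
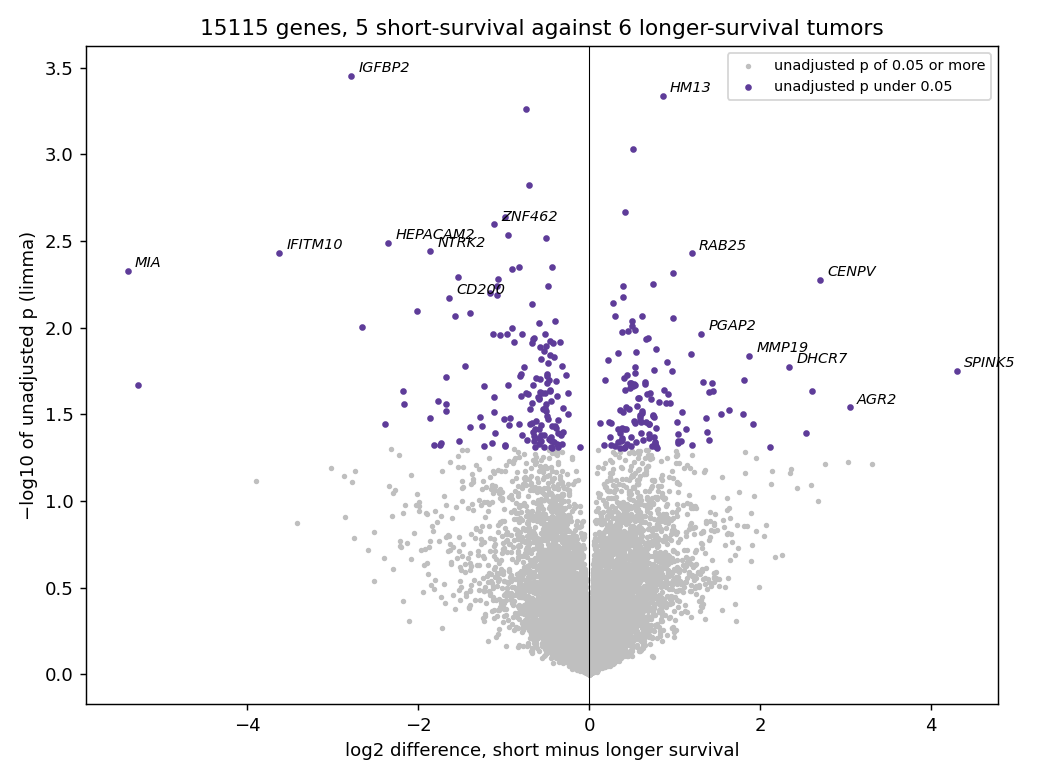
Difference between short and longer survival (horizontal, log2, short minus longer) against -log10 of the unadjusted p of limma (vertical) for 15115 genes, with purple points below an unadjusted p of 0.05. The smallest p belonged to IGFBP2 and HM13, and no gene passed after adjustment.

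The leading genes below are those with the smallest p among genes with a difference of at least 1 log2 unit, and none of them passed the test. On the lower side the first was IGFBP2. The mRNA of this binding protein of insulin-like growth factors was at 6.83, 9.41, 7.89, 7.65 and 6.30 log2 in short-survival tumors 1 to 5, against a lowest, median and highest of 9.55, 10.57 and 11.05 log2 in longer survival. The groups did not overlap, although short-survival tumor 2 and longer-survival tumor 1 were only 0.13 log2 apart. The difference was -2.79 (SE 0.52, 95% interval -3.96 to -1.62, unadjusted p = 0.000352, adjusted p = 1.00, limma). It ranged between -3.23 and -2.46 when 1 tumor was left out. The 14 non-metastatic tumors had a median of 10.72 log2, close to the longer-survival tumors, with a range of 5.08 to 11.36 log2.

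HEPACAM2, an adhesion protein of the immunoglobulin family, was 2.89, 3.82, 2.98, 2.79 and 2.81 log2 in short-survival tumors 1 to 5, against a lowest, median and highest of 3.48, 5.55 and 7.09 log2 in longer survival. Only longer-survival tumor 1 lay within the range of the short-survival tumors, and 4 of those 5 were below 3 log2. The difference was -2.35 (SE 0.61, unadjusted p = 0.00324, adjusted p = 1.00, limma). In non-metastatic tumors the median was 8.37 log2. MIA, a small secreted protein of cartilage, was 3.29, 6.15, 2.46, 4.13 and 4.10 log2 in short survival, against a lowest, median and highest of 3.43, 10.03 and 12.71 log2 in longer survival, a difference of -5.40 (SE 1.49, unadjusted p = 0.00468). Longer-survival tumor 3, at the lowest value of its group, was the one that overlapped. IFITM10 of the interferon-induced transmembrane family was 2.91, 3.29, 3.30, 6.86 and 3.15 log2 in short survival and had a lowest, median and highest of 5.59, 7.50 and 9.40 log2 in longer survival. Short-survival tumor 4 stood apart from the other 4, and the difference was -3.63 (SE 0.96, unadjusted p = 0.00370).

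ITGA6, the laminin-binding integrin chain of basal epithelium, was 12.43, 12.27, 11.50, 11.85 and 9.97 log2 in short survival, against a lowest, median and highest of 12.29, 13.56 and 14.92 log2 in longer survival (difference -2.01, SE 0.61, unadjusted p = 0.00801). NTRK2, the receptor of brain-derived neurotrophic factor, was 8.87, 6.85, 7.27, 7.93 and 7.90 log2 in short survival and had a lowest, median and highest of 8.49, 9.76 and 10.61 log2 in longer survival (difference -1.86, SE 0.49, unadjusted p = 0.00361). The groups overlapped in both genes. CD200, a surface protein that dampens myeloid cells, had a difference of -1.64 and CTNNAL1, related to alpha-catenin, of -1.57. The zinc finger gene ZNF462 was narrow within short survival, between 5.05 and 5.60 log2, against 5.50 to 7.06 log2 in longer survival (difference -1.12). Genes of the same rule that had differences between -1.53 and -1.07 were STX2, a syntaxin, FAM13B, GALT of galactose metabolism, CACUL1, WDR33 of messenger RNA 3′ end processing and TMEM245.

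**Figure D3:**
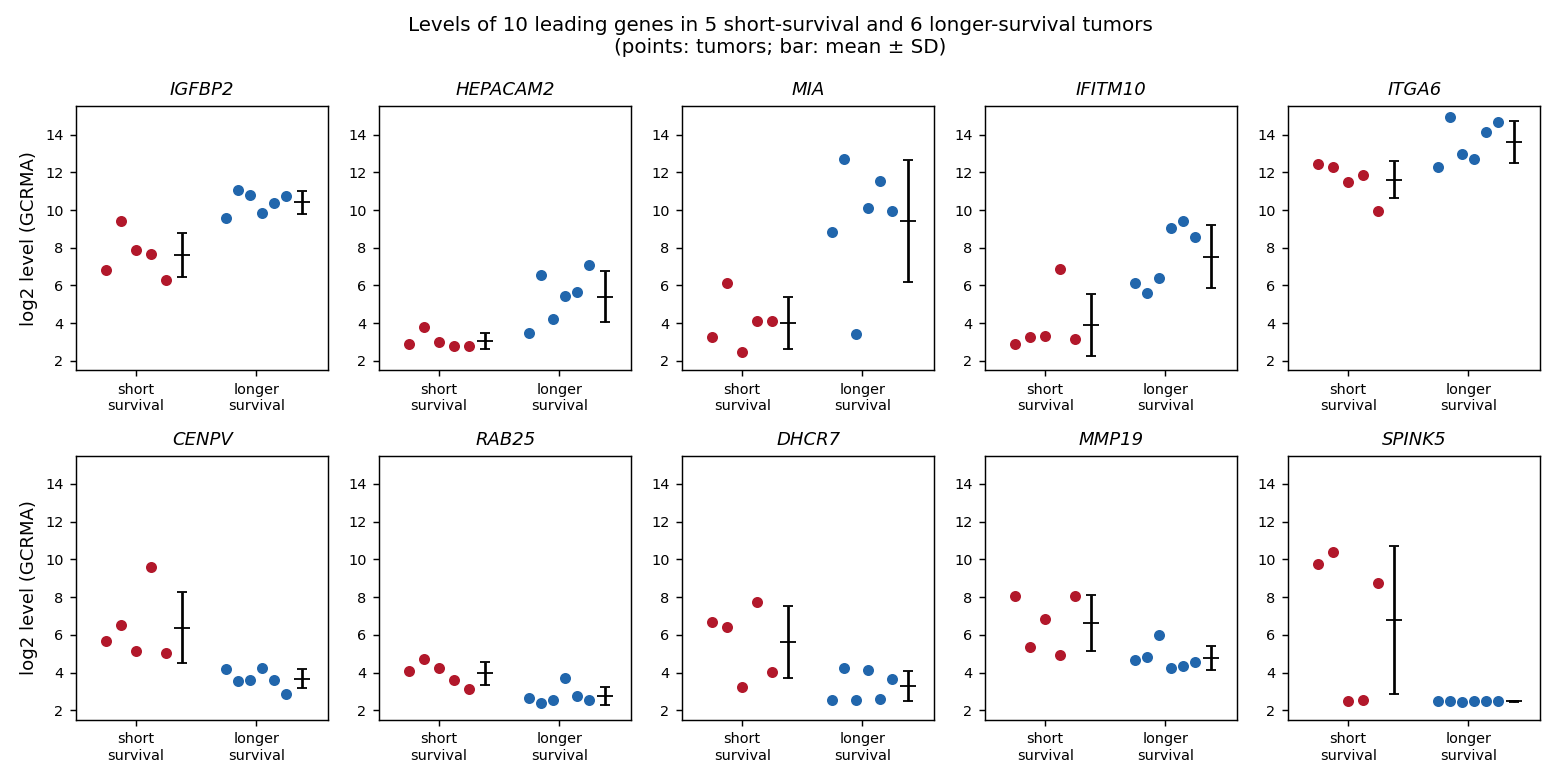
Log2 level of 10 leading genes in the 5 short-survival tumors (red) and the 6 longer-survival tumors (blue), with the mean and SD beside each group. IGFBP2 and CENPV have no overlap between groups, and SPINK5 is at about 2.5 log2 in all longer-survival tumors and high in 3 of 5 short-survival tumors.

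On the higher side, among genes with a difference of at least 1 log2 unit, the smallest p belonged to RAB25. This gene, which encodes a small GTPase of epithelial recycling, was at 4.10, 4.72, 4.25, 3.62 and 3.12 log2 in short-survival tumors 1 to 5, against a lowest, median and highest of 2.39, 2.59 and 3.74 log2 in longer survival. Longer-survival tumor 4 stood apart from the rest of its group at 3.74 log2, and the difference was 1.20 (SE 0.32, unadjusted p = 0.00372, adjusted p = 1.00, limma). CENPV, a centromere protein, was 5.68, 6.50, 5.12, 9.60 and 5.04 log2 in short survival, against a lowest, median and highest of 2.86, 3.63 and 4.25 log2 in longer survival. The groups were separated by 0.79 log2, and the difference was 2.70 (SE 0.76, unadjusted p = 0.00528). Non-metastatic tumors had a median of 4.76 log2, between the groups.

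SPINK5, a protease inhibitor of stratified epithelium, was 9.74, 10.41, 2.49, 2.55 and 8.73 log2 in short survival and lay between 2.44 and 2.51 log2 in all longer-survival tumors, and its median in non-metastatic tumors was 2.54 log2. Short-survival tumors 1, 2 and 5 carried the whole difference of 4.30 (SE 1.51, unadjusted p = 0.0177). GAS1, a coreceptor of hedgehog signalling, was likewise above background in short-survival tumors 1 to 3, at 5.03, 4.28 and 3.70 log2, and at 1.93 and 1.94 log2 in the other two, against 1.85 to 2.00 log2 in longer survival (difference 1.44). DHCR7, which makes cholesterol in the last step of the pathway, was 6.71, 6.42, 3.24, 7.75 and 4.02 log2 in short survival, against a lowest, median and highest of 2.55, 3.12 and 4.26 log2 in longer survival. Of these, 3 short-survival tumors exceeded every longer-survival tumor, and the difference was 2.34 (SE 0.81, unadjusted p = 0.0168).

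FADS2, a fatty acid desaturase, had a difference of 1.19, AGPAT4 of phosphatidic acid synthesis of 1.33 and PGAP2 of lipid anchor synthesis of 1.31. A4GALT, which makes the glycolipid Gb3, had a difference of 1.81 and lay at 4.47, 4.52, 6.12, 4.19 and 2.12 log2 in short survival. The protease MMP19 was 8.05, 5.34, 6.84, 4.91 and 8.07 log2 in short survival, against a lowest, median and highest of 4.24, 4.60 and 6.02 log2 in longer survival (difference 1.87, SE 0.63, unadjusted p = 0.0146). Short-survival tumors 1, 3 and 5 were above every longer-survival tumor. The surface peptidase ENPEP (difference 2.60), AGR2 of the secretory pathway (3.05), the methionine salvage enzyme MRI1 (1.44), LIPT2 of lipoic acid transfer (1.40) and MFSD12 of the lysosome (1.63) completed the list, with unadjusted p-values between 0.0208 and 0.0298.

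Groups without overlap were few: 10 genes had every short-survival tumor above every longer-survival tumor (0.0662% of those tested) and 7 had the reverse (0.0463%), 17 in all (0.112%). The widest gaps on the higher side belonged to CENPV (0.79 log2), HM13 (0.31), C20H19orf53 (0.14), ITGA11 (0.09) and ABHD14B (0.07). HM13, the signal peptide peptidase, was at 10.32, 9.62, 9.50, 9.60 and 9.97 log2 in short survival, against a lowest, median and highest of 8.67, 8.95 and 9.19 log2 in longer survival (difference 0.86, 95% interval 0.49 to 1.24, unadjusted p = 0.000459, adjusted p = 1.00, limma). ITGA11, a collagen-binding integrin chain, was near background in all 11, between 2.69 and 3.22 log2 in short survival and between 2.55 and 2.60 log2 in longer survival. On the lower side the gaps were those of AP4S1 (0.16), SOS2 (0.14), IGFBP2 (0.13), GALC (0.04) and U2SURP (0.004). SOS2, an exchange factor of RAS, had a difference of -0.95, AP4S1 of an adaptor complex of -0.91, the lysosomal enzyme GALC of -0.82 and the splicing factor U2SURP of -0.50. Another AP4S1 probe set, with means of 7.19 log2 in short and 7.66 log2 in longer survival, had only -0.46 (unadjusted p = 0.113, limma).

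The smallest p of all probe sets was that of a probe set with no gene name in the annotation used, which was chosen after its values were seen. It lay at 4.74, 2.68, 2.82, 2.59 and 6.54 log2 in short survival, against a lowest, median and highest of 8.47, 11.91 and 13.78 log2 in longer survival. The groups did not overlap, and the difference was -7.59 (SE 1.20, unadjusted p = 9.01e-05, adjusted p = 1 over probe sets, limma). Its median was 12.64 log2 in non-metastatic tumors, and the 2 metastatic tumors of unstated survival were at 8.88 and 7.33 log2. When all 27 tumors shared 1 spread, this probe set alone passed, with an adjusted p of 0.0241.

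A longer-survival tumor shared the grade II of the short-survival tumors. IGFBP2 in that tumor was at 9.84 log2, above the 9.41 log2 of the highest short-survival tumor, whereas RAB25 at 3.74 log2 was within the range of short survival. For IGFBP2 this was fixed in advance, because its groups did not overlap. Both genes were chosen with that tumor in the comparison, so its levels cannot tell grade from survival. In the 14 non-metastatic tumors, grade II against grade III gave 0 genes at an adjusted p below 0.05 (0%) and 492 at an unadjusted p below 0.05 (3.26%, limma). There, 23 of 38 leading genes (the 15 per direction of smallest p and the 5 per side of widest gap) had a difference of the same sign as in short against longer survival, against 57.1% of all 15115 genes, and 2 of the 23 (STX2, at -1.02, and AP4S1, at -0.58) had an unadjusted p below 0.05. Grades were those of the sample labels, and the grade of 1 of the 14 differs between the labels and the published description. Without that tumor, 0 genes passed, 602 had an unadjusted p below 0.05 and 24 of the 38 had the same sign.

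Of the genes that the study measured by qPCR or stained, HEPACAM2 alone had an unadjusted p below the threshold. AURKA, a mitotic kinase, was 7.16, 9.47, 9.20, 6.96 and 10.42 log2 in short survival and had a lowest, median and highest of 6.13, 8.77 and 10.17 log2 in longer survival. Both groups spanned more than 3 log2, and the difference was 0.13 (95% interval -1.68 to 1.95, unadjusted p = 0.874, limma). BMP6, a bone morphogenetic protein, gave -0.01 (-1.99 to 1.98) and TGFBR3, the betaglycan receptor, gave -0.07 (-2.24 to 2.11), so that a difference of nearly 2 log2 in either direction remained inside their intervals. The arachidonate lipoxygenase ALOX12 gave 0.23 (-0.66 to 1.12), the receptor ERBB4 0.16 (-0.33 to 0.66), the mannose 6-phosphate receptor IGF2R -0.24 (-1.31 to 0.83) and ERBB2 0.60 (-1.06 to 2.25).

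None of the 36 gene lists had a member that passed the test, and their mean levels overlapped between the groups in 36 of 36. Over all 15115 genes, 7406 differences were positive and 7709 negative, with a median of -0.0017, and the lists are to be set beside these. Among lists of general cell functions, housekeeping had 12 of 13 negative differences (median -0.11) and the cytosolic ribosome 30 of 38 (median -0.08). These lists were written with earlier results of the series known, and their counts are descriptions.

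Cell cycle lists overlapped between the groups. The mean level of 39 measured mitosis and spindle genes was 7.13, 8.75, 8.15, 6.08 and 8.77 log2 in short-survival tumors 1 to 5, against a lowest, median and highest of 5.77, 7.98 and 9.08 log2 in longer survival. The lowest tumor of short survival was tumor 4, from the dog that lived 1 month, and the lowest of longer survival was tumor 5, from a dog that lived 8 months. Of the 39, 18 differences were positive and 21 negative, with a median of -0.01 and 0 at an unadjusted p below 0.05. The kinesin KIF2C had a difference of -0.80, the kinase CDK1 of -0.38 and INCENP of the chromosomal passenger complex of 0.57. DNA replication had 38 of 45 negative differences, with a median of -0.20, a direction that the housekeeping and ribosome lists shared. The primase subunit PRIM2 had -0.67 (unadjusted p = 0.0354) and the kinase CDC7 had -0.98, whereas the licensing factor CDT1 had 0.92 (unadjusted p = 0.0241). The mean level of the replication list was 7.83, 8.93, 8.64, 7.45 and 8.98 log2 in short survival and between 7.32 and 9.41 log2 in longer survival.

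**Figure D4:**
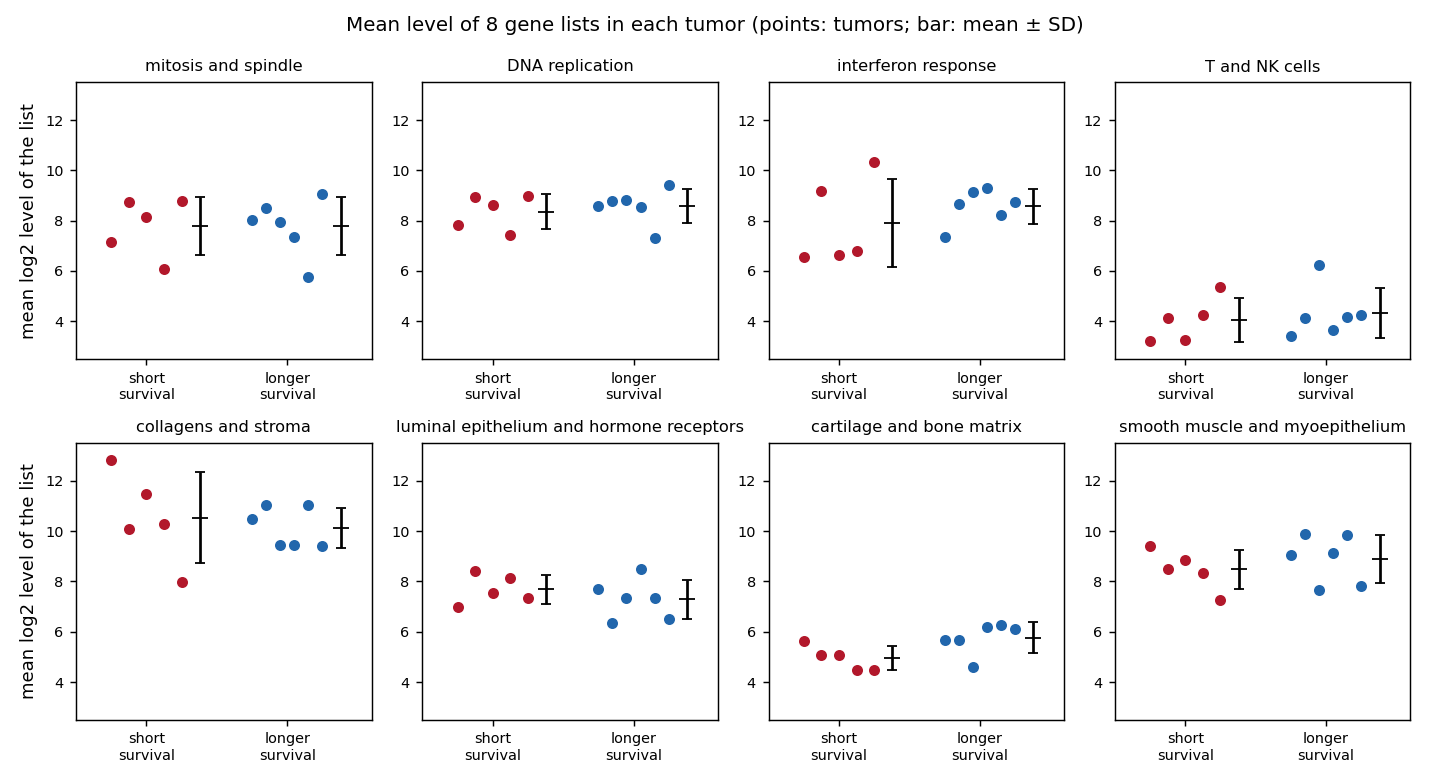
Mean log2 level of 8 gene lists in each of the 5 short-survival tumors (red) and 6 longer-survival tumors (blue), with mean and SD beside each group. The interferon list is split within short survival, with tumors 2 and 5 at 9.19 and 10.35 log2 and the other 3 below 7 log2, and all 8 lists overlap between the groups.

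The interferon response was divided within short survival. The list, of genes induced by interferons, had a mean level of 6.57, 9.19, 6.63, 6.81 and 10.35 log2 in short-survival tumors 1 to 5, against a lowest, median and highest of 7.35, 8.70 and 9.28 log2 in longer survival. Tumors 1, 3 and 4 of short survival were below every longer-survival tumor, and tumor 5 was above every one. Of 26 measured genes, 22 had a negative difference, with a median of -0.56, and 0 had an unadjusted p below 0.05. IFI6 had -1.53 (unadjusted p = 0.0553) and IFI44L -1.54 (unadjusted p = 0.0639). The T and NK cell list also had 22 of 26 negative differences, with a median of -0.19. CD3D, a chain of the T cell receptor complex, was 3.50, 8.70, 4.96, 7.92 and 9.89 log2 in short survival, against a lowest, median and highest of 6.53, 8.91 and 11.20 log2 in longer survival, so that short-survival tumors 1 and 3 alone were below the range of longer survival. The CD8B chain of cytotoxic T cells had a positive difference of 0.97 that rested on 11.35 log2 in short-survival tumor 4. The B cell gene CD79B was at 5.47 and 5.48 log2 in short-survival tumors 2 and 5 and near background in all other tumors of the 11, and MS4A1 of B cells was highest in the same tumors.

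Of 25 collagen and stroma genes, 18 had a positive difference, with a median of 0.31. COL6A3 was 11.92, 8.79, 10.85, 8.35 and 6.29 log2 in short survival, against a lowest, median and highest of 6.43, 7.17 and 8.34 log2 in longer survival (difference 1.95, unadjusted p = 0.0561), and the matrix glycoprotein TNC had 1.90. Short-survival tumor 1 was highest and tumor 5 lowest of the 11 in the mean level of this list, at 12.84 and 7.99 log2. PDGFRA, a receptor of fibroblasts, had -1.25. The basal and squamous list had 10 positive and 12 negative differences and a median of -0.02, and its 1 member at an unadjusted p below 0.05 was ITGA6. The luminal list had 18 of 24 positive differences and a median of 0.35, with AGR2 as the member at an unadjusted p below 0.05. The tight junction gene CLDN7 had 1.33, KRT7 1.75 and KRT18 1.48, and ELF5, a factor of alveolar cells, had -2.52.

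Of 19 cartilage and bone matrix genes, 11 had a negative and 8 a positive difference, with a median of -0.42, and 1 in each direction had an unadjusted p below 0.05. HAPLN1, a link protein of cartilage, was at background in all 5 short-survival tumors, between 1.92 and 2.83 log2, and was 8.35, 12.65, 1.94, 2.01, 10.65 and 8.93 log2 in longer-survival tumors 1 to 6, a difference of -5.27 (SE 1.93, unadjusted p = 0.0213, adjusted p = 1.00, limma). Of the longer-survival tumors at background, tumor 3 had a survival of 6 months and tumor 4, the one of grade II, of 9 months. The 2 metastatic tumors of unstated survival, both grade III, were also at background, at 1.99 and 2.06 log2. The proteoglycan ACAN was 7.47 log2 in short-survival tumor 1 and between 2.54 and 2.97 log2 in the other 4, with a median of 7.13 log2 in longer survival. CHAD, a cartilage matrix protein, had a positive difference of 0.42 (unadjusted p = 0.0486), with levels of 3.56, 3.17, 3.33, 2.58 and 2.57 log2 in short-survival tumors 1 to 5, against a lowest, median and highest of 2.49, 2.55 and 2.86 log2 in longer survival. The smooth muscle list had 14 of 19 negative differences (median -0.26), among them MYH11 at -1.64, whereas TAGLN had 0.60.

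Other lists likewise overlapped between the groups in mean level. The endothelial list had 19 of 24 positive differences (median 0.33), with NOS3 at 0.79 (unadjusted p = 0.0491) and the growth factor VEGFA at -0.72. Adipocyte genes had 11 of 15 positive (median 0.37), with RBP4 at 1.46 and LPL at -1.41. In cholesterol synthesis, 13 of 19 were positive (median 0.25), and INSIG1 had 1.03 beside DHCR7. Among 17 milk and secretory genes, 10 were positive (median 0.26), with FASN at 0.54 and LALBA, the milk protein, at -3.41. Macrophage genes were balanced, 14 positive and 11 negative, with TREM2 at 1.05 and APOE at -0.98. Wnt genes divided 21 to 20, and the secreted inhibitors DKK1 (-3.02) and SFRP4 (2.67) went opposite ways without passing the test. The hypoxia gene P4HA1 had -0.76, the receptor EGFR -0.72 and the death promoter BAD 0.61 (unadjusted p = 0.00861). BAD levels were low, between 3.35 and 4.44 log2 in short survival and between 3.26 and 3.50 log2 in longer survival.

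Single tumors differed widely within both groups. The 10 named genes with the largest SD over the 11 tumors, chosen after their values were seen, were CNMD, OLFM4, DMBT1, HAPLN1, LAMA1, VMO1, HPX, ELF5, ABCC11 and LALBA, with SDs of 5.00 to 3.87 log2. CNMD, a matrix protein of cartilage, was 14.75 log2 in short-survival tumor 3 and 14.71 log2 in longer-survival tumor 1, against 2.42 and 2.44 log2 in short-survival tumors 4 and 5. The mucosal protein OLFM4 was also highest in that pair, at 13.66 and 14.15 log2, with short-survival tumor 1 at 13.09 log2. DMBT1, of mucosal defence, was at 13.54, 13.46 and 13.24 log2 in short-survival tumors 2 and 3 and longer-survival tumor 1, and at 13.53 log2 in longer-survival tumor 4. HPX, which binds heme, and the transporter ABCC11 were at 14.77 and 14.92 log2 in short-survival tumor 4, and next highest at 10.89 and 11.24 log2 in longer-survival tumors 2 and 5. LALBA was 12.69 and 12.16 log2 in longer-survival tumors 3 and 6 and 6.94 log2 in short-survival tumor 5. VMO1 and the laminin chain LAMA1 were high in both groups and at background in others of each.

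**Figure D5:**
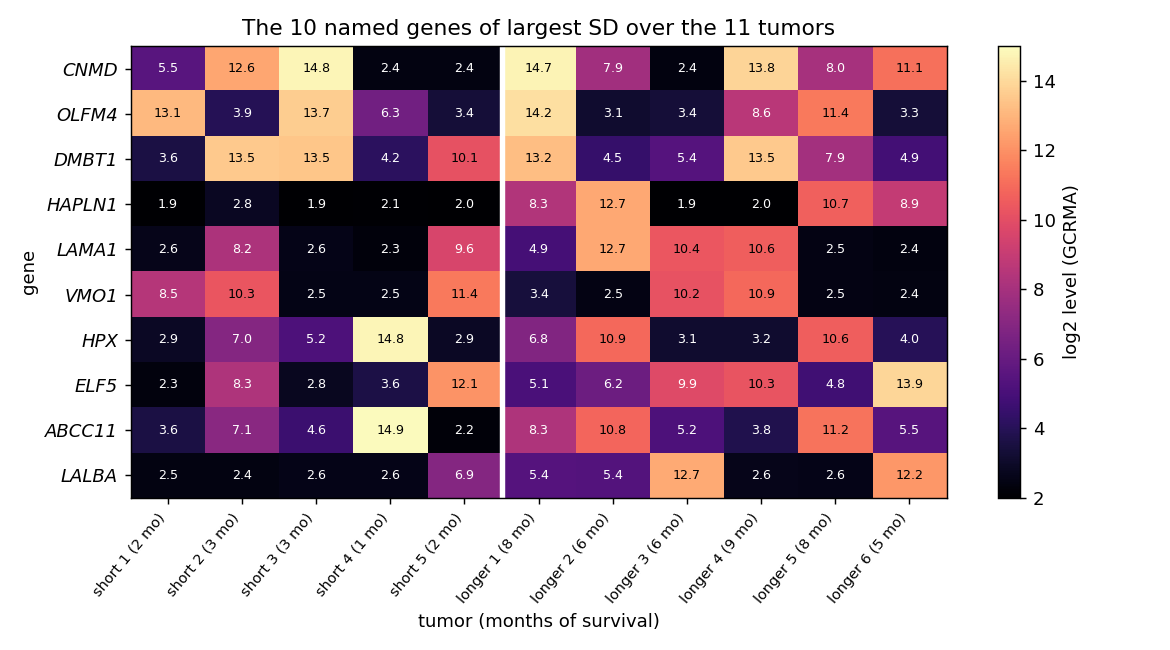
Log2 level of the 10 named genes of largest SD in each of the 11 tumors, short survival at left, with survival in months in brackets. High levels, such as CNMD at 14.75 log2 in short 3 and 14.71 log2 in longer 1, occur in tumors of both groups, apart from HAPLN1, which is at background in all 5 short-survival tumors.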

How the data were processed

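RNA of 27 canine mammary carcinomas was measured, each tumor on its own Affymetrix Canine Genome 2.0 array. The deposited values are log2 intensities that the authors made in Partek with its gcRMA workflow, in which background was corrected by RMA, arrays were quantile-normalized and probes were summarized by median polish. They were neither scaled nor filtered again. The number of tumors limits the precision.

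Of 43035 probe sets, 175 controls were left out. Of the 42860 tested, 29254 had 1 gene symbol, 439 several and 13167 none. For each of 15115 symbols the probe set with the highest mean in all 27 tumors was kept, and 8254 symbols had more than 1. Groups came from the sample labels. The contrast of short minus longer survival was fitted in R 4.3.3 by limma 3.58.1 (lmFit and eBayes, two-sided, Benjamini-Hochberg over all genes), without covariates. Single properties of tumors were compared by exact permutation over 462 divisions. Members and gene lists were chosen with earlier results of these data known. Named genes are the 15 per direction of smallest p with a difference of at least 1 log2 unit, since none passed, the 5 per side of widest gap, the qPCR genes with ESR1 and ERBB2, up to 3 per list by p, and genes said to be chosen after their values were seen.

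The method was tested on simulated tumors of the same 5 against 6 design over 15115 genes. Values were drawn as normal, with spreads taken from the data. All sizes were simulated together in 1 data set, with genes drawn independently of each other. Of 50 genes changed by each size, 19 were called at 1 log2 unit, 36 at 2, 46 at 3 and 48 at 4. Of the unchanged genes, 4 were also called. The adjusted p depends on how many genes change, so the counts do not carry over to data with fewer changed genes. Genes of the smallest and of the largest spread were not among those changed. These counts therefore do not cover the most variable genes. Alternatives were leaving out each tumor, other scalings, filters, probe sets, tests and covariates, other survival divisions, and, chosen after seeing the data, a pair of arrays left out and a non-metastatic tumor left out of the grade comparison.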

Additional observations from a re-analysis of the deposited data

Results flagged for a closer look

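In 256 groups of 5 or 6 tumors (92 genes named here and 36 gene lists), 27 (10.5%) held a tumor that stood apart. Its gap to the nearest other exceeded the critical share of the group's range. That share is set to be passed in about 1 in 20 groups of normal values. Many of the genes were picked from these data, some lay near background, and all groups share the same tumors. The percentage therefore cannot show an excess over chance. Longer-survival tumor 3 was the one that stood apart in several immune and cartilage results. Its T and NK cell list (6.22 log2) and antigen presentation list (11.33) were highest of longer survival, as were FADS2 (3.21) and MMP19 (6.02). Its NOS3 (3.25) and cartilage and bone matrix list (4.61) were lowest. CD79B was also highest there, at 2.49 log2 against 2.23 log2 in the nearest tumor, both near background. In the other longer-survival tumors, RAB25 was 3.74 log2 in tumor 4, AP4S1 was 9.09 in tumor 6, PRIM2 was 8.30 in tumor 2 and CDC7 was 8.17 in tumor 5.

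Short-survival tumor 2 was highest in HEPACAM2 (3.82 log2), PGAP2 (8.77), PENK (8.88), HAPLN1 (2.83) and DKK1 (7.42) and lowest in P4HA1 (10.41). Short-survival tumor 4 was highest in IFITM10 (6.86), ESR1 (3.40) and the erythrocyte list (3.30) and lowest in the list of human prognostic signature genes (7.05). Short-survival tumor 5 was highest in KIF2C (4.92), LALBA (6.94) and the apoptosis list (7.25) and lowest in ZNF462 (5.05). Short-survival tumor 1 was highest in ACAN (7.47) and lowest in LPL (6.04).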

How the results depend on the processing

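The count of genes at an adjusted p below 0.05 was 0 in each direction in the comparison as reported and with any 1 tumor left out, and genes at an unadjusted p below 0.05 then numbered 105 to 262 higher and 126 to 195 lower in short survival. With grade as a covariate, 10 genes were higher and 99 lower (23 and 273 probe sets), and 382 and 543 had an unadjusted p below 0.05. That fit rests on 1 longer-survival tumor of grade II, which lay outside the range of the 5 short-survival tumors in all 109 genes. With 2 months or less against 8 months or more, 1 gene and 1 probe set passed as lower. The gene was PENK, an enkephalin precursor, at -6.87 (adjusted p = 0.000668, limma), which was -2.86 in the full comparison. That division kept only short-survival tumors 1, 4 and 5 (PENK 2.80, 2.72 and 2.68 log2) and longer-survival tumors 1, 4 and 5 (9.78, 9.64 and 9.39). Left out were short-survival tumors 2 and 3 (8.88 and 3.03 log2) and longer-survival tumors 2, 3 and 6 (5.47, 4.24 and 2.75). With all 27 tumors sharing 1 spread, 1 probe set passed as lower. Higher genes at an unadjusted p below 0.05 numbered 79 above the median brightness, 215 with all 27 tumors, 260 with tumor size as a covariate (346 lower), 364 with the upper quartile and 253 with log2 months as a linear term. The causes were not tested. The sign of a named gene turned in 75 of 2748 combinations of gene and alternative, and 68 of 92 genes kept theirs in every alternative that gave a value. With grade as a covariate the differences were AGR2 -0.43, TGFBR3 0.51, ERBB2 -1.46, HAPLN1 0.14, LALBA 0.76, FASN -0.57, INSIG1 -0.14, KRT7 -0.55, KRT18 -1.44, OLFM4 -0.56, DMBT1 -4.55, VMO1 -3.86 and ABCC11 2.68. With 2 months or less against 8 months or more they were ERBB2 -1.10, CDK1 0.42, CLDN7 -0.29, TAGLN -0.20, LALBA 0.45, VEGFA 0.24, KRT7 -0.0926, KRT18 -0.55, OLFM4 -3.79, DMBT1 -5.60 and HPX -0.0224. With tumor size they were BMP6 0.27, AURKA -0.75, TGFBR3 0.0919, DMBT1 -0.20 and ABCC11 0.63, with age OLFM4 -0.0193, DMBT1 -0.36 and ABCC11 0.29, and with log2 months AURKA -0.0488, ERBB2 -0.00889, OLFM4 -0.51, DMBT1 -1.20 and ABCC11 0.41. Array weights gave BMP6 0.14, TGFBR3 0.0925 and HPX -1.48, the upper quartile ALOX12 -0.033 and BMP6 0.13, a second quantile normalization BMP6 0.027, and the probe set of largest SD AURKA -0.34. With 1 tumor left out, the sign turned in 11 genes, whose differences lay between -0.00181 and 0.552 for ALOX12, -0.571 and 0.541 for BMP6, -0.559 and 0.0477 for IGF2R, -0.344 and 0.553 for AURKA, -0.591 and 0.831 for TGFBR3, -0.0124 and 0.291 for ESR1, -0.425 and 1.67 for CD8B, -0.649 and 2.11 for OLFM4, -0.408 and 2.07 for DMBT1, -1.96 and 1.01 for HPX and -3.08 and 0.0973 for ABCC11.

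No paired analysis was possible because the labels give no replicate numbers. The 5 against 6 tumors and the spread between them limit the precision.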
